A study of Mus musculus with 8 samples.

Results

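Primary hepatocytes with a liver-specific knockout of the metal importer ZIP8 (LSKO) were compared with and without added manganese, over protein-coding genes whose counts share no exon position with a gene on the opposite strand. A gene was kept when none of its exons overlapped an exon of another gene on the opposite strand in the mouse build GRCm38. This left 16664 of the 55450 genes in the count tables, out of 21951 protein-coding genes, and 8414 of them carried enough reads for testing. The 3 libraries compared came from LSKO hepatocytes (genotype Alb-cre(+/+);Slc39a8(F/F), strain C57BL/6, isolated at 8 weeks). Both untreated libraries are called LSKO replicates 1 and 2, and the manganese library had MnCl2 at 2 µM for 24 h by the treatment protocol, where the design text says overnight. All cells were held in serum-free medium with dexamethasone. WT cells of genotype Slc39a8(F/F), which carry the floxed gene without Cre and received no metal (2 libraries), and LSKO cells given FeCl2, sodium selenite or ZnCl2 at 2 µM for the same time (1 library each) served for reference. Cre is driven by the albumin promoter, so deletion is aimed at hepatocytes and spares other cells of the preparation. The sources do not say whether replicate libraries came from separate mice, so p-values measure only the spread between these libraries, which may be technical.

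Manganese is a cofactor of arginase, of mitochondrial superoxide dismutase and of the glycosyltransferases of the Golgi. Hepatocytes take it up through the importers ZIP14 and ZIP8 (the product of Slc39a8) and clear it into bile. ZIP8 also carries zinc, iron and selenite.

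The manganese library was set apart by its read assignment. Genes took 72.2% of its reads, against 39.3% to 42.1% in the other 7 libraries, and 4.48% fell in no gene, against 42.3% to 45.6%. A further 4028 protein-coding genes had enough reads but an opposite-strand exon overlap, and were not tested. Their median log2 difference between manganese and LSKO was -0.25, and 16.2% of them lay below -1. For the 8414 genes without such overlap the median was -0.01 and 0.903% lay below -1. Ambiguous reads made up 5.18% with manganese and 1.26% and 1.25% in LSKO, and reads not aligned uniquely 9.36%, the highest of the 8 libraries, against 7.15% and 7.12%. In 2 further counts the manganese library was like the LSKO pair: reads rejected for low quality numbered 62 with manganese and 0 in both LSKO libraries, against 592678 to 680199 elsewhere, and unaligned reads made up 8.79% to 10.0% in these 3 libraries, against 4.12% to 4.94%. Reads in genes numbered 23162053 with manganese and 21886740 and 26837212 in the LSKO replicates. Levels below are CPM, the reads of a gene per 1e6 reads of the library, after scaling over the 8414 genes. CPM is not corrected for gene length, so it is compared between libraries and not between genes.

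Slc39a8, the gene targeted in LSKO, stood at 19.1 and 23.5 CPM in WT, at 12.3 and 2.83 CPM in LSKO replicates 1 and 2, and at 4.54 CPM with manganese. All 3 libraries lay below WT, and LSKO replicate 1 kept far more of the transcript than the others. The manganese value fell between the LSKO replicates (log2 fold change -0.71 ± 0.663 SE, edgeR quasi-likelihood adjusted p = 0.681). Counts per gene also include reads from exons outside a floxed segment. Hepatocyte markers were abundant: the 17 tested hepatocyte markers summed to 50376 and 63758 CPM in LSKO and 68542 CPM with manganese. Alb, encoding albumin, gave 37959, 47569 and 53154 CPM.

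Genes higher with manganese included 7 of 26 tested acute phase proteins, 3 of 16 macrophage markers, 4 of 19 glutathione S-transferases, and Fos and Egr1 among 24 immediate early genes. Genes lower with manganese included Tuba1a, Tubb2b and Lgals1 among 30 cytoskeletal genes, Vim and Itga3 among 27 matrix genes, and Nfe2l2, the NRF2 gene. A gene was called when its adjusted p (edgeR quasi-likelihood test, Benjamini-Hochberg) was under 0.05 and its log2 fold change exceeded 0.5 in size. With manganese, 62 of the 8414 tested genes (0.737%) were higher and 42 (0.499%) lower, 1.24% in all. At an unadjusted p under 0.05 these counts were 623 and 589. The manganese arm had 1 library, and its spread was assumed to be that of the WT and LSKO pairs. That library also differed from the LSKO pair in read assignment, with 72.2% of reads in genes against 39.4% and 39.3%. Manganese and processing therefore cannot be told apart in these calls. Without WT replicate 1, or without WT replicate 2, 0 genes passed in either direction, although 515 to 517 genes lay higher and 515 to 516 lay lower at an unadjusted p under 0.05. A fit of only the manganese library and the LSKO pair also called 0 genes with edgeR (519 upward and 512 downward with an unadjusted p under 0.05), where DESeq2 called 32 higher and 21 lower. When the scaling and test took in all genes of the table, the same set of 8414 genes gave 258 higher and 92 lower calls. Of the genes named below, DESeq2 over all 8 libraries did not call Saa2, Orm2, Ccl3, Mmp8, Ackr3, Ms4a6d, Eif3j2, Cyp4a14, Selenbp2, Pak6, Lgals1, Mcm4, Hes1 and Nr1h4. A correction for gene length and GC ended the calls of Angptl4, Pcna, Gsta1, Ms4a6d and Ccl3. Taking WT and LSKO together as control ended those of Selenbp2, Nr1h4, Pcna, Dgat2 and Gsta1. Calls of Angptl4 and Dgat2 were lost without LSKO replicate 2, and those of Pcna, Gsta3 and Mmp8 without LSKO replicate 1.

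**Figure D1:**
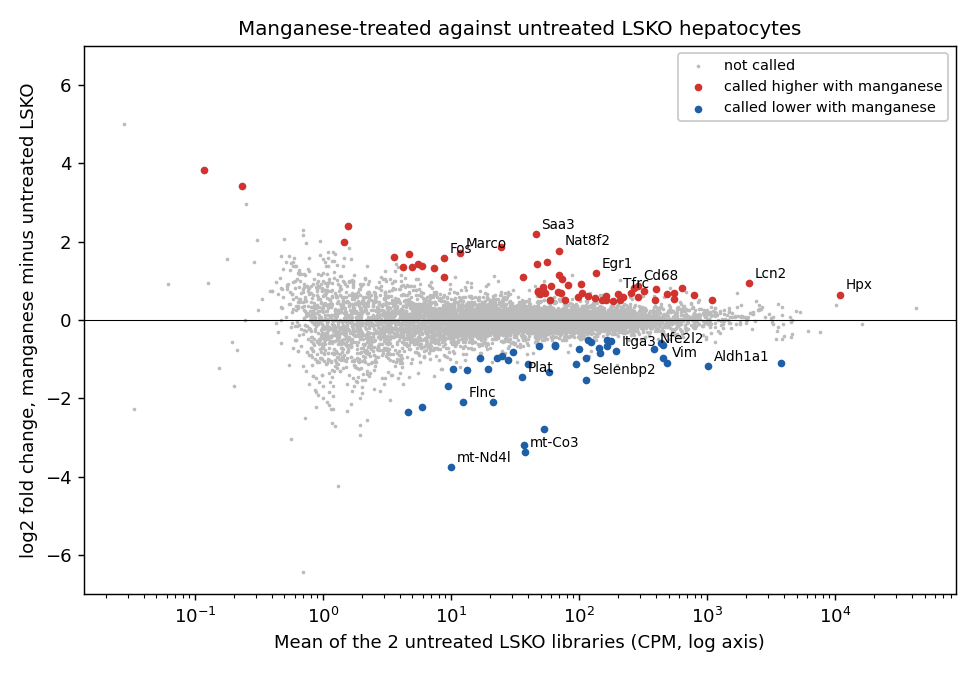
Each point is 1 of the tested genes: the horizontal axis gives the mean CPM of both untreated LSKO libraries on a log axis, the vertical axis the log2 fold change with manganese. The 62 genes called higher are red and the 42 called lower are blue, and most genes lie near 0.

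The spread between the LSKO replicates bears on every value below. The log2 difference between LSKO replicates 2 and 1 had an SD of 0.259 over genes, against 0.379 and 0.328 for manganese minus LSKO replicates 1 and 2. Manganese lay above both LSKO libraries in 3125 genes (37.1%) and below both in 3260 (38.7%). Of the 62 genes called higher, LSKO replicate 2 exceeded replicate 1 in 44, and of the 42 called lower it was below replicate 1 in 21. Of the called genes, 59 of 62 were also above both WT libraries and 40 of 42 were also below both.

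The manganese transport list had 1 call among 13 tested genes, against 1.24% of all tested genes. It was drawn broadly: Park7 does not encode a transporter, and Slc39a4 and Slc30a3 encode zinc transporters. The median log2 fold change of the list was -0.06 (median of all tested genes -0.01). The call was Tfrc, the transferrin receptor, through which transferrin-bound iron and manganese enter cells. It stood at 192 and 207 CPM in LSKO and 317 CPM with manganese, a rise of 1.59-fold (log2 0.67 ± 0.0886 SE, edgeR adjusted p = 0.011). The WT libraries gave 185 and 182 CPM, and the other metals 121 (iron), 284 (selenite) and 306 CPM (zinc). Slc39a14, encoding the importer ZIP14, was at 110, 128 and 138 CPM in LSKO replicate 1, LSKO replicate 2 and manganese (log2 0.21, edgeR adjusted p = 0.432). Slc40a1, encoding the exporter ferroportin, was at 220, 208 and 172 CPM (log2 -0.31, edgeR adjusted p = 0.159). The phagosomal metal transporter Slc11a1 was at 7.11, 7.11 and 12.6 CPM (log2 0.82, edgeR adjusted p = 0.112). Slc30a3 had only 16, 18 and 33 reads. The other 7, Tmem165, Atp13a2, Atp13a3, Slc10a7, Park7, Trpm7 and Slc39a4, had log2 fold changes from -0.13 to 0.2. Slc30a10, Slc11a2, Atp2c1 and Atp13a1 overlap an opposite-strand exon and were left out.

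None of the 15 tested genes on the list of manganese-requiring enzymes was called (median log2 0.08), where 1.24% of all tested genes were. At an unadjusted edgeR p under 0.05, 3 were higher and 0 lower, against 623 and 589 of all 8414. DESeq2 over all 8 libraries called 0 genes of the list. Sod2, the mitochondrial superoxide dismutase, was at 151 and 152 CPM in LSKO and 178 CPM with manganese (log2 0.23 ± 0.0861 SE, edgeR adjusted p = 0.276). Arg1, the arginase of the urea cycle, was at 72.1 and 112 CPM in LSKO and 75.3 CPM with manganese, inside the LSKO range. In WT it was at 11.2 and 10.9 CPM. Pck1, the rate-limiting enzyme of gluconeogenesis, was at 8.84, 10.9 and 18.7 CPM (log2 0.91, edgeR adjusted p = 0.0862). Ppm1k, a mitochondrial phosphatase, was at 24, 23.2 and 31.6 CPM (log2 0.42, edgeR adjusted p = 0.214). Log2 fold changes of Pcx, Gclc, Asl, Fbp1, Pepd, Xpnpep1, Ipmk, Ppm1a, Ppm1b and Ppm1d ran from -0.11 to 0.2. This list too was drawn broadly: Asl is not known to need manganese. Several others, such as Gclc, Fbp1 and the Ppm1 phosphatases, also work with magnesium. The only metallothionein gene that could be tested, Mt1, was at 1118 and 1190 CPM in LSKO and 1304 CPM with manganese (log2 0.18, edgeR adjusted p = 0.401), beside 1306, 1974 and 2559 CPM with iron, selenite and zinc.

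Acute phase proteins, which the liver secretes in inflammation, were the list with the most calls. Of 26 tested genes 7 were higher and 0 lower, against 0.737% and 0.499% of all tested genes. The median log2 fold change was 0.50, and 19 of the 26 lay above both LSKO libraries (37.1% of all tested genes). Saa3, an inducible serum amyloid A, was at 37.3 and 54.8 CPM in LSKO and 212 CPM with manganese. The manganese library thus lay well above both LSKO libraries, and the rise was 4.58-fold (log2 2.20 ± 0.185 SE, edgeR adjusted p = 0.000848). Orm2, an orosomucoid, was at 60.2, 79.9 and 155 CPM (log2 1.14 ± 0.181 SE, edgeR adjusted p = 0.0222), and its relative Orm1 at 555, 715 and 1129 CPM (log2 0.83). Saa2 was at 340, 458 and 690 CPM (log2 0.79, edgeR adjusted p = 0.0433). Saa1, which shares 96.7% of its transcript sequence with Saa2, was at 592, 779 and 1135 CPM and narrowly missed the threshold (edgeR adjusted p = 0.0514), so reads of this pair may be split between them. The heme-binding protein Hpx was at 10052, 11767 and 17146 CPM (log2 0.65 ± 0.113 SE, edgeR adjusted p = 0.0316). In each of these genes LSKO replicate 2 lay between replicate 1 and manganese. Both fibrinogen chains tested had small differences (Fga log2 -0.22, Fgb -0.07). Leaving out LSKO replicate 2 gave 17 higher calls in this list and a median of 0.77, and leaving out LSKO replicate 1 gave 8 and 0.28.

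Levels of these transcripts with the other metals were in the same range. Saa3 was at 102, 240 and 128 CPM with iron, selenite and zinc and at 18.4 and 14.6 CPM in WT. Orm2 was at 104, 168 and 119 CPM with those metals and at 15.9 and 22.2 CPM in WT. Neither gene differed between manganese and the mean of the other metals by the test of that difference (Saa3 log2 0.53, edgeR adjusted p = 0.17; Orm2 0.28, edgeR adjusted p = 0.429).

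Other lists of secreted hepatocyte proteins differed among themselves. Over all tested genes 0.737% were called higher and 0.499% lower. Shares of 37.1% and 38.7% of all tested genes lay above and below both LSKO libraries. Of 14 albumin and plasma carrier genes 3 were higher (median log2 0.35), and 13 of the 14 lay above both LSKO libraries. Serpina7, thyroxine-binding globulin, was at 29.5, 43.3 and 77.8 CPM (log2 1.09 ± 0.189 SE, edgeR adjusted p = 0.0316). Azgp1, a lipid-mobilizing glycoprotein, was at 740, 845 and 1223 CPM (log2 0.63, edgeR adjusted p = 0.0215). Coagulation and fibrinolysis genes had 2 higher and 1 lower calls among 25 tested, with a median of 0.06, and 9 lay above and 7 below both LSKO libraries. Of these Cpb2, a carboxypeptidase that slows clot lysis, was at 247, 293 and 479 CPM (log2 0.83, edgeR adjusted p = 0.0125). Apolipoproteins and genes of lipoprotein handling had 1 higher (Apoc1) and 1 lower (Angptl4) call among 18 tested, with a median of 0.11, and 7 lay above and 7 below both LSKO libraries. Complement genes had 0 calls of 21 tested (unadjusted p under 0.05 in 11 higher and 1 lower), and DESeq2 over all 8 libraries called 0; their median was 0.35 against both LSKO libraries together, 0.57 against replicate 1 and 0.16 against replicate 2. For the 20 major urinary proteins these medians were 0.56, 0.97 and 0.26, with 0 calls by edgeR or by DESeq2 over all 8 libraries (unadjusted p under 0.05 in 7 higher and 1 lower). Genes of this family are near-copies of each other, so their single values are uncertain.

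**Figure D2:**
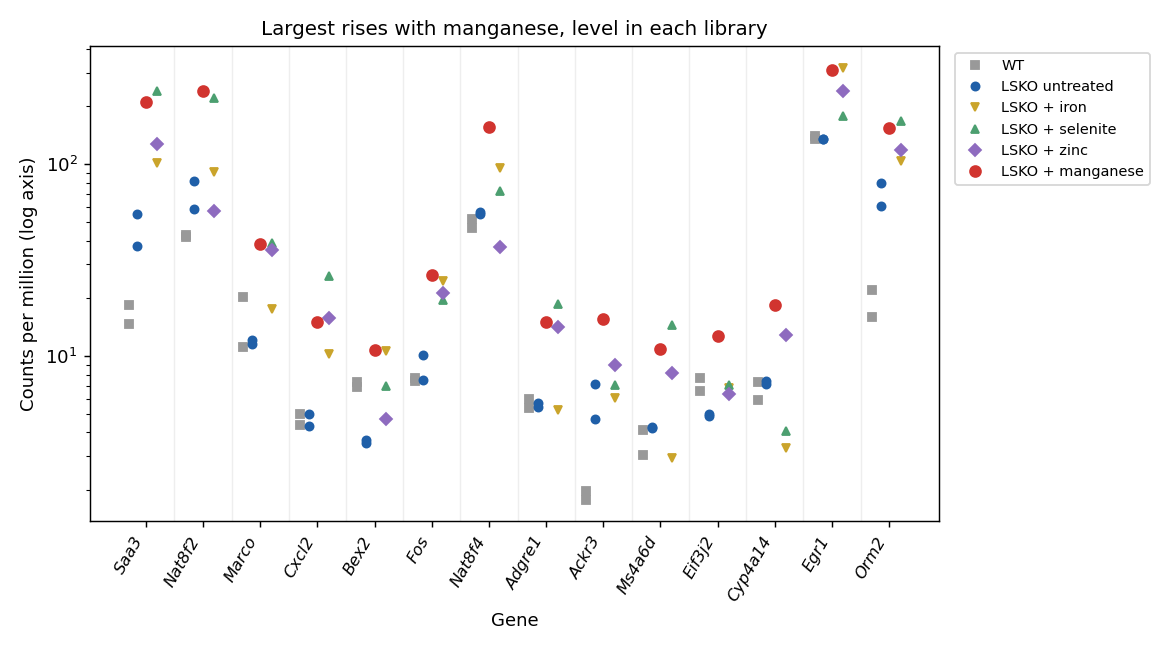
Level in each of the 8 libraries, in CPM on a log axis, of 14 of the 15 genes with the largest rises among called genes with an established symbol that average at least 100 counts. The red manganese point lies above both blue LSKO points in each gene, and points of the other metals reach a similar level in several, such as Saa3, Marco and Fos.

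Macrophage genes were called higher in 3 of 16 tested Kupffer cell and macrophage markers, against 0.737% of all tested genes. Their median log2 was 0.41. Marco, a scavenger receptor of resident macrophages, was at 12.1 and 11.5 CPM in LSKO and 38.5 CPM with manganese (log2 1.71 ± 0.264 SE, edgeR adjusted p = 0.0204). Adgre1, which encodes the macrophage surface protein F4/80, was at 5.39, 5.72 and 15.1 CPM (log2 1.44 ± 0.207 SE, edgeR adjusted p = 0.015). Cd68, a lysosomal protein of phagocytes, was at 269, 304 and 529 CPM (log2 0.88 ± 0.0965 SE, edgeR adjusted p = 0.00506). By contrast, Clec4f, found on Kupffer cells, was at 18.2, 31.1 and 26.8 CPM, and Vsig4 at 10.8, 10.9 and 10.8 CPM. A further 3 calls, chosen after their values were seen, were Spic, a transcription factor of red pulp macrophages (1.73, 1.39 and 8.24 CPM), the phagocyte oxidase subunit Cybb (9.24, 8.5 and 18.8 CPM) and the endotoxin receptor Cd14 (203, 239 and 335 CPM). With iron, selenite and zinc, Marco was at 17.5, 38.9 and 35.9 CPM and Adgre1 at 5.22, 18.7 and 14.1 CPM. Spic was at 3.85, 8.81 and 5.85 CPM, Cybb at 8.54, 26.7 and 15.4 CPM, and Cd14 at 292, 301 and 205 CPM. Cd68 was at 399, 320 and 301 CPM with those metals. The marker list summed to 478 and 538 CPM in LSKO and 826 CPM with manganese, against 387 to 609 CPM in the other 5 libraries. In the LSKO and manganese libraries Cd68 alone made up most of the sum, and the other 15 tested markers summed to 209 and 233 CPM in LSKO and 297 CPM with manganese, against 131 to 289 CPM elsewhere. None of its tested members stood at 0 in these 3 libraries, and Timd4 and Aif1 had too few reads for testing. In bulk RNA a change in the number of cells of a type and a change in RNA per cell cannot be told apart.

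Of 25 tested genes of NF-kB, cytokines and chemokines 3 were higher and 0 lower (median log2 0.29), namely Cxcl2, Ccl3 and Lcn2. All tested genes gave 0.737% higher and 0.499% lower calls. Cxcl2, a neutrophil-attracting chemokine, was at 4.32, 5 and 15 CPM (log2 1.68 ± 0.211 SE, edgeR adjusted p = 0.00775). Lcn2, an iron-siderophore-binding protein of the acute phase, was at 1853, 2413 and 4087 CPM (log2 0.94 ± 0.136 SE, edgeR adjusted p = 0.0157). Ccl3 was called on 20, 29 and 97 reads. NF-kB subunits had small differences (Nfkb1 log2 0.21, Rela 0.07, Rel 0.01), and the inhibitor gene Nfkbia was at -0.05. Of 16 neutrophil and monocyte markers 11 had too few reads and 4 were tested. Of these Mmp8, a neutrophil collagenase, was called on 1, 3 and 30 reads. This list summed to 6.65 and 6.28 CPM in LSKO and 11.6 CPM with manganese. The part of macrophages and neutrophils in the acute phase and chemokine values was not tested.

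Immediate early genes are induced within minutes of many stimuli, and many of them encode transcription factors. Their list had 2 calls among 24 tested (median log2 0.14). Both were higher, against 0.737% of all tested genes. Fos was at 7.51 and 10.1 CPM in LSKO and 26.4 CPM with manganese (log2 1.58 ± 0.195 SE, edgeR adjusted p = 0.00743). Egr1 was at 135 and 135 CPM in LSKO and 308 CPM with manganese (log2 1.19 ± 0.0837 SE, edgeR adjusted p = 0.000285), so the LSKO libraries did not differ at this precision. With iron, selenite and zinc, Fos was at 24.7, 19.5 and 21.3 CPM and Egr1 at 319, 179 and 240 CPM.

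Upstream sequences of 3 genes that rose, 1 each from the immediate early, chemokine and acute phase lists, are shown because well-known control elements of these classes can be read in them. Each is the 160 bases before the transcript start (RefSeq, GRCm38.p6), 5′ to 3′ on the strand of the gene. Capitals mark a match, on either strand, to the cAMP response element core TGACGT in Fos, to the kappa B site GGNNTTTCC in Cxcl2 and to the C/EBP pattern TTNNGNAA in Saa3. No matches overlap. Fos lies at chr12:85473730-85473889 (plus strand), Cxcl2 at chr5:90903739-90903898 (plus strand) and Saa3 at chr7:46715677-46715836 (minus strand).
Fos: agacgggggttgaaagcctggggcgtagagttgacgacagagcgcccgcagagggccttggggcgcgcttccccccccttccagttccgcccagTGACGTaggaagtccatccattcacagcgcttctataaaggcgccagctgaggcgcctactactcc
Cxcl2: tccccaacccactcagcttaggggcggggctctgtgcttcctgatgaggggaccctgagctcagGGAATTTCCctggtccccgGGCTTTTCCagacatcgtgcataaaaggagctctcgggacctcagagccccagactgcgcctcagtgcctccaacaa
Saa3: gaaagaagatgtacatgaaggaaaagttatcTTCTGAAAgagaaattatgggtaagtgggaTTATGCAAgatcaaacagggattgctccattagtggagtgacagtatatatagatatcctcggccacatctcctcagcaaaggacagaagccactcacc

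In windows of 300 bases around the start, GGNNTTTCC occurred in 1790 of 27025 genes (6.62%), in 7.05% of tested genes and in 9 of 18 tested genes of the NF-kB, cytokine and chemokine list that had a window. Cxcl2 was the only called gene of these 9, and Cxcl1, which also holds the letters, had a log2 fold change of -0.07. Genes called higher and lower held them in 4 of 43 and 2 of 25 windows; Saa3 was among the 4, by a match farther upstream than the stretch shown. TTNNGNAA occurred in 44.1% of all genes and 37.0% of tested genes with a window, in 13 of 19 acute phase genes, in 28 of 43 genes called higher and in 8 of 25 called lower. TGACGT occurred in 13.1% of tested genes, in 7 of 43 called higher and in 1 of 25 called lower. The antioxidant response element TGACNNNGC occurred in 16.7% of tested genes, in 8 of 21 genes of NRF2 and its targets, in 6 of 43 called higher and in 6 of 25 called lower. These are letter matches, and 68 of the 104 called genes had a window.

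Genes of hypoxia and glycolysis had 3 higher and 0 lower calls among 20 tested, against 0.737% and 0.499% of all tested genes. Their median log2 was 0.44, and 16 of 20 lay above both LSKO libraries (37.1% of all tested genes). Vegfa, a vascular growth factor, was at 99.7, 111 and 170 CPM (log2 0.69 ± 0.132 SE, edgeR adjusted p = 0.0457). Pkm, pyruvate kinase of non-hepatic type, was at 293, 355 and 542 CPM (log2 0.74, edgeR adjusted p = 0.0192). Among genes that were not called, Pfkl was at 123, 167 and 227 CPM and Ldha at 2071, 2751 and 3421 CPM, so LSKO replicate 2 again lay between.

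Antioxidant genes split. Among 25 tested genes of NRF2 and its targets 4 were higher and 1 lower, against 0.737% and 0.499% of all tested genes, with a median of 0.15. The lower gene was Nfe2l2, which encodes NRF2, the activator of the antioxidant response. It was at 380 and 395 CPM in LSKO and 233 CPM with manganese (log2 -0.73 ± 0.0897 SE, edgeR adjusted p = 0.00708), and at 369 and 359 CPM in WT. Srxn1, sulfiredoxin, which repairs peroxiredoxins, was at 516, 587 and 898 CPM (log2 0.70 ± 0.1 SE, edgeR adjusted p = 0.0147). Among 19 tested glutathione S-transferases, which couple glutathione to electrophiles, 4 were higher and 0 lower, with a median of 0.02. Gsta4 was at 52.3, 52 and 93.8 CPM (log2 0.85 ± 0.096 SE, edgeR adjusted p = 0.00547), Gsta3 at 265, 314 and 436 CPM, and Gstm6 at 50, 57.8 and 87 CPM. Gsta1 was at 134, 133 and 197 CPM, but shares 99.5% of its transcript with Gm3776, so its reads are uncertain. In WT it was at 267 and 241 CPM, above the manganese library. With WT and LSKO together as control its log2 fold change was 0.09 (edgeR adjusted p = 0.545), and with length and GC corrected for it was 0.47, under the limit of 0.5, so both settings end the call. Gclc, the catalytic subunit of glutathione synthesis, was at 1065, 1009 and 1013 CPM. Hmox1, heme oxygenase, was at 432, 333 and 581 CPM (log2 0.61, edgeR adjusted p = 0.0845).

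Of 62 genes called higher, 26 were on no list. Of these Gm13889, which has no established symbol, was at 24.5, 24.7 and 89.3 CPM (log2 1.86 ± 0.114 SE, edgeR adjusted p = 0.000256), and Slc28a2, a nucleoside transporter, was called on 2, 6 and 44 reads. Both were chosen after their values were seen. Nat8f2 and Nat8f4 are members of a family of N-acetyltransferase-like genes. Nat8f2 was at 58.6 and 81.4 CPM in LSKO and 240 CPM with manganese (log2 1.77 ± 0.153 SE, edgeR adjusted p = 0.000942). Nat8f4 was at 55.2, 56.2 and 157 CPM (log2 1.49 ± 0.102 SE, edgeR adjusted p = 0.000276). Both also exceeded the mean of the other metals (log2 1.20 and 1.30, edgeR adjusted p = 0.00399 and 0.000161). With iron, selenite and zinc, Nat8f2 was at 90.9, 221 and 56.9 CPM, so the selenite library came near the manganese one. Nat8f4 was at 95.8, 72.9 and 36.9 CPM with those metals. Cyp4a14, a fatty acid hydroxylase and PPAR alpha target, was at 7.45, 7.16 and 18.5 CPM (log2 1.34, edgeR adjusted p = 0.0251). Of the same 26-gene list of fat oxidation, Acaa2, the last enzyme of mitochondrial beta-oxidation, was at 154, 172 and 249 CPM, while the pantetheinase Vnn1 was lower at 37.2, 43 and 18.6 CPM. The median of that list was -0.08. Further rises were Ackr3, a chemokine-scavenging receptor (4.72, 7.16 and 15.6 CPM), Ms4a6d (4.26, 4.22 and 10.9 CPM), Bex2 (3.66, 3.5 and 10.8 CPM) and Eif3j2 (4.85, 5 and 12.7 CPM). Eif3j2 shares 99.4% of its transcript with Eif3j1 and is uncertain. Others called higher were Gla (alpha-galactosidase, 109, 97.5 and 194 CPM), Cyp3a13 (465, 513 and 770 CPM), Apoc1 (240, 271 and 411 CPM), Dgat2 (169, 156 and 232 CPM) and the stress gene Nupr1 (80.5, 64.3 and 117 CPM).

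Of 42 genes called lower, 23 were on no list. Of 30 tested genes of cytoskeleton and dedifferentiation, which rise when hepatocytes flatten in culture, 3 were lower and 0 higher. All tested genes gave 0.499% lower and 0.737% higher calls. The median log2 of these 30 was -0.34, and 21 of 30 lay below both LSKO libraries (38.7% of all tested genes). Vim, the intermediate filament vimentin, counted with the matrix genes, was at 469 and 500 CPM in LSKO and 227 CPM with manganese (log2 -1.09 ± 0.0966 SE, edgeR adjusted p = 0.00103). Lgals1, galectin-1, was at 115, 75.5 and 44 CPM (log2 -1.11 ± 0.212 SE, edgeR adjusted p = 0.0457). The tubulin genes Tuba1a (30.1, 25.3 and 13.7 CPM) and Tubb2b (24.2, 21.3 and 11.6 CPM) were also lower, and each shares over 95% of at least 50% of its transcript with other tubulin genes or pseudogenes. Itga3, an integrin subunit, was at 211, 178 and 112 CPM (log2 -0.80 ± 0.121 SE, edgeR adjusted p = 0.0192). Flnc, the actin crosslinker filamin C, was at 11.4, 13.6 and 2.91 CPM (log2 -2.10 ± 0.258 SE, edgeR adjusted p = 0.00708). Actb, the cytoplasmic actin, was at 3745, 4202 and 2995 CPM (log2 -0.41, edgeR adjusted p = 0.112). In 27 genes of extracellular matrix and integrins 2 were lower and the median was -0.24. Markers of the cells that could bring such transcripts had 0 calls by edgeR or by DESeq2 over all 8 libraries: the median was -0.33 over 11 stellate cell and fibroblast markers, -0.47 over 6 cholangiocyte markers and -0.18 over 13 sinusoidal endothelial markers, and at an unadjusted p under 0.05, 1, 4 and 1 of them were lower and 0 higher. Their sums were 104, 99.6 and 90.1 CPM, 496, 370 and 313 CPM, and 274, 219 and 233 CPM in LSKO replicate 1, LSKO replicate 2 and manganese. The part of these cells in the lower values was not tested.

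**Figure D3:**
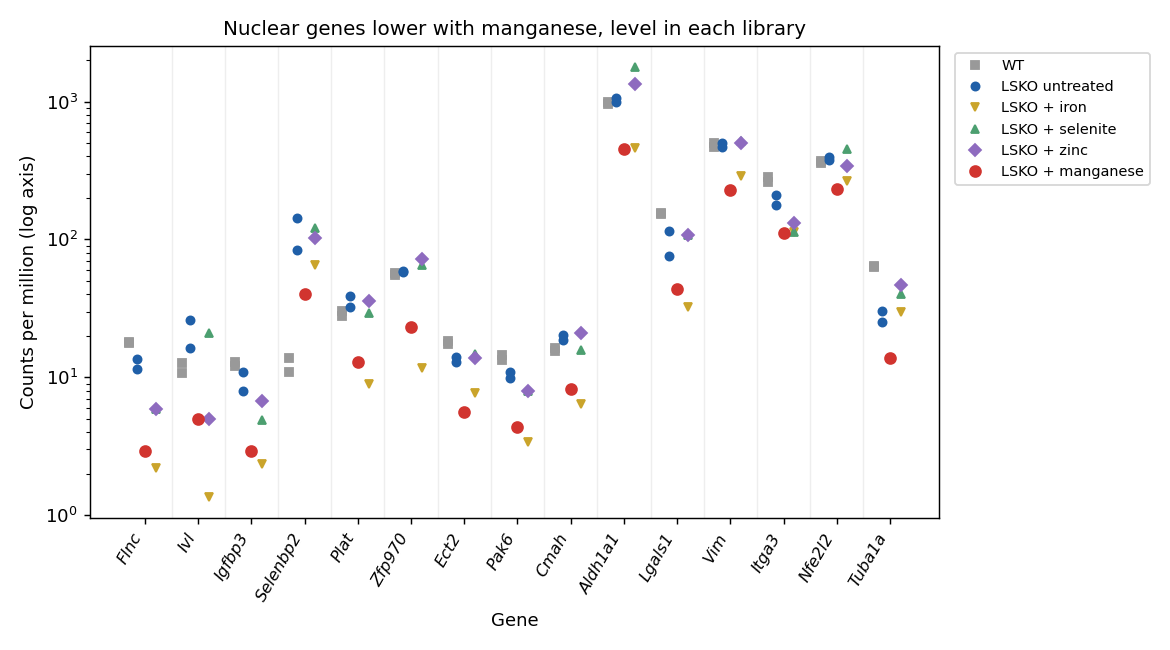
Level in each library, in CPM on a log axis, of the nuclear genes among the 15 largest falls (called genes with an established symbol that average at least 100 counts) and of 4 further called genes (Vim, Itga3, Nfe2l2 and Tuba1a). The red manganese point lies below both blue LSKO points in each gene, and the iron library, a yellow triangle, lies near or below it in several, such as Flnc, Plat, Zfp970 and Aldh1a1.

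Cell cycle genes had the lowest median of the nuclear lists, -0.52 over 23 tested genes. They had 1 call in each direction, against 0.737% higher and 0.499% lower over all tested genes. Of the 23, 18 lay below both LSKO libraries (38.7% of all tested genes). Mcm4, a subunit of the replicative helicase, was at 17.3, 16.1 and 8.54 CPM (log2 -0.97, edgeR adjusted p = 0.0491), while Pcna, the sliding clamp, was at 181, 189 and 262 CPM (log2 0.50, edgeR adjusted p = 0.0358). Pcna shares 99.2% of 51.4% of its transcript with a pseudogene. Mki67, a marker of dividing cells, had only 88, 46 and 22 reads.

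Among other nuclear falls, Aldh1a1, a retinaldehyde dehydrogenase, was at 990 and 1056 CPM in LSKO and 456 CPM with manganese (log2 -1.17 ± 0.0943 SE, edgeR adjusted p = 7e-04). It stood at 1001 and 962 CPM in WT and at 461, 1772 and 1340 CPM with iron, selenite and zinc, so the iron library was as low as the manganese one. Plat, tissue plasminogen activator, was at 32.6, 39 and 13 CPM (log2 -1.46 ± 0.171 SE, edgeR adjusted p = 0.00579). Igfbp3, a carrier of insulin-like growth factors, was at 11, 7.89 and 2.91 CPM (log2 -1.69). Selenbp2, a selenium-binding protein, was at 84.2, 144 and 39.9 CPM (log2 -1.52, edgeR adjusted p = 0.0411), but WT gave only 13.9 and 10.9 CPM and its transcript is 98.5% identical to Selenbp1. Nr1h4, the bile acid receptor FXR, was at 46.3, 50.5 and 30.7 CPM (log2 -0.66, edgeR adjusted p = 0.0457), the same level as the 30.6 and 32 CPM of WT. Hes1, a Notch target, was at 31.4, 29.9 and 17.4 CPM (log2 -0.81 ± 0.151 SE, edgeR adjusted p = 0.0417). It was the only call among 14 tested Notch pathway genes (median -0.14), against 1.24% of all tested genes. With iron, selenite and zinc, Hes1 stood at 27.6, 19.5 and 19.3 CPM. Of 14 tested glucocorticoid targets 2 were lower and 1 was higher, against 0.499% and 0.737% of all tested genes, with a median of -0.03. The lower genes were Sgk1 (96.4, 103 and 59.9 CPM) and Angptl4 (162, 170 and 117 CPM), and the higher gene was Lcn2. Ivl, Zfp970, Ect2, Pak6 and Cmah complete the 15 largest falls of called genes with an established symbol and at least 100 counts on average, with log2 fold changes from -2.09 to -1.24.

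All 10 tested genes of the mitochondrial genome lay below both LSKO libraries (median log2 -2.59), against 38.7% of all tested genes. All 10 were lower at an unadjusted edgeR p under 0.05, and 4 were called lower, against 0.499% of all tested genes. The 4 that were called had the largest falls of all called genes. They were mt-Nd4l (12.8, 7.33 and 0.727 CPM), mt-Co3 (41.2, 34.3 and 3.63 CPM), mt-Atp6 (40, 34.8 and 4.12 CPM) and mt-Co2 (61.2, 45.6 and 7.69 CPM). All 4 match a nuclear copy over at least 99% of the transcript with 100% identity, and rested on 132 to 921 reads in the LSKO libraries. Their values are uncertain, since reads that fit both places are not counted by default. By comparison, mt-Nd1, mt-Nd2, mt-Nd4 and mt-Cytb, with 40976 to 76564 reads, had log2 fold changes of -0.43, -0.35, -0.47 and -0.48 and were not called (edgeR adjusted p = 0.183, 0.283, 0.144 and 0.165). Of these mt-Nd4 also matches a nuclear copy, over 63.6% of its transcript. With all 10 left out of the fit, an alternative chosen after seeing the data, 59 genes were higher and 36 lower. In all, 18 of the 104 called genes had a near-identical copy, taken as 95% identity over at least 50% of the transcript: these 4, 9 higher and 5 lower.

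**Figure D4:**
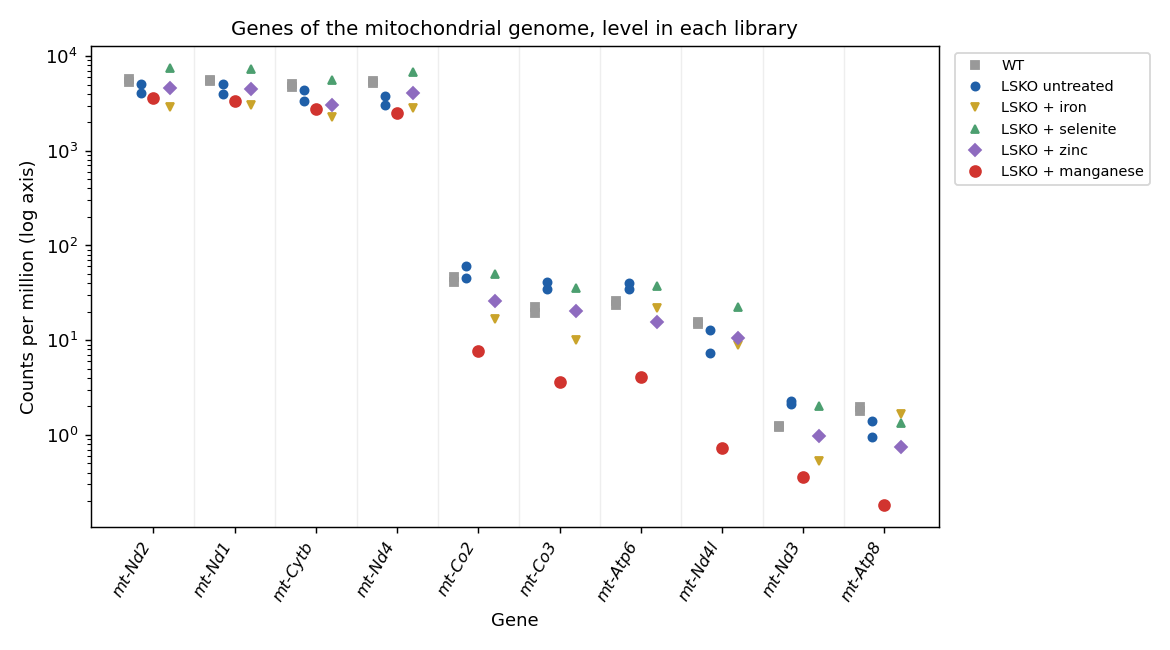
Level in each library, in CPM on a log axis, of the 10 tested genes of the mitochondrial genome, in order of their LSKO level. The 4 genes at the left have at least 2267 CPM in every library, while the 6 at the right have under 100 CPM and the red manganese point is the lowest in each.

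The lists that follow had no calls by edgeR. Over all tested genes 1.24% were called, and 37.1% lay above and 38.7% below both LSKO libraries. At an unadjusted edgeR p under 0.05, 623 of the 8414 were higher and 589 lower. The 61 tested cytosolic ribosomal protein genes had 0 calls and a median of 0.16, 55 of them above both LSKO libraries. At an unadjusted p under 0.05, 17 were higher and 0 lower, and DESeq2 over all 8 libraries called 0. That median was 0.07 when length and GC were corrected for. The 51 nuclear genes of oxidative phosphorylation had 0 calls and a median of 0.12. The 18 genes of the unfolded protein response had 0 calls and a median of -0.12, with 13 below both LSKO libraries. The 20 genes of cholesterol synthesis had 0 calls and a median of -0.20, with 12 below both. For these 3 lists DESeq2 over all 8 libraries also called 0, and at an unadjusted p under 0.05, 6, 0 and 0 genes were higher and 2, 5 and 7 lower. The 20 genes of iron handling and the 18 selenoprotein genes had medians of -0.02 and 0.05 and no calls by edgeR (1 and 0 higher by DESeq2 over all 8 libraries), and at an unadjusted p under 0.05, 3 and 2 of them were higher and 0 and 1 lower.

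**Figure D5:**
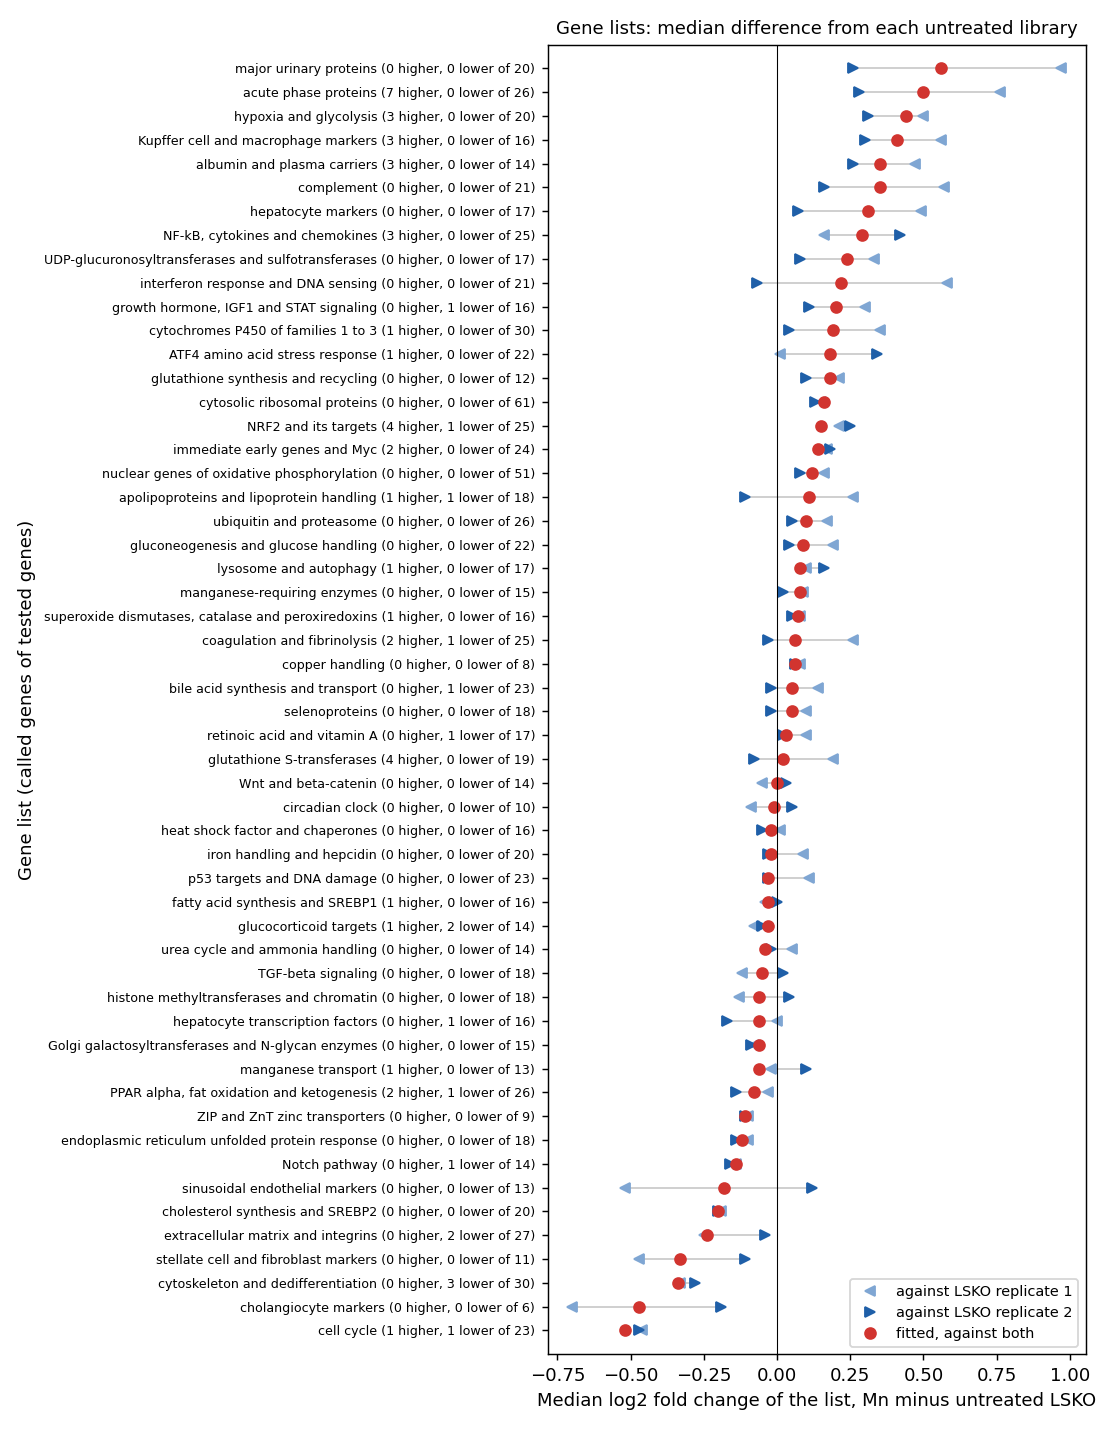
Median log2 fold change with manganese over the tested genes of each list with at least 6 of them, other than the mitochondrial genome: red, the fit against both LSKO libraries; triangles, against each LSKO replicate alone, from log2 of CPM plus 0.5. Acute phase proteins, hypoxia and glycolysis, and macrophage markers lie above 0 against both replicates, and cytoskeleton and cell cycle genes lie below 0 against both.

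The manganese library was also compared with the mean of the iron, selenite and zinc libraries, which share no library with it. By the edgeR quasi-likelihood test 44 of 8414 genes (0.523%) were higher and 83 (0.986%) lower with manganese, 1.51% in all. The manganese library differs from these 3 in its read assignment, low-quality reads and unaligned reads, and those differences and manganese itself cannot be told apart here. The same holds for its read assignment in the comparison with untreated LSKO. Tfrc, Cd68, Apoc1, Acaa2, Cyp4a14, Nat8f2 and Nat8f4 were higher in this comparison too. Vim, Aldh1a1, Nfe2l2, Nr1h4, Vnn1, Sgk1, Ect2, Zfp970, Tuba1a and Tubb2b were lower. Apart from Apoc1 and Zfp970, each lay beyond all of the 3 metal libraries, some narrowly. Apoc1 was at 411 CPM with manganese and 155, 440 and 292 CPM with iron, selenite and zinc. Zfp970 was at 23.3 CPM with manganese and 11.6, 65.2 and 72.3 CPM with those metals. Tfrc was at 317 CPM, against 121, 284 and 306 CPM. In the iron library Aldh1a1 was at 461 and Nr1h4 at 33.5 CPM, against 456 and 30.7 CPM with manganese. Gsta1 went the other way: it was higher than untreated LSKO with manganese but lower than the other metals, which gave 390, 649 and 678 CPM against 197 CPM (log2 -1.50 ± 0.0981 SE, edgeR adjusted p = 0.000111). For Cxcl2, Fos, Marco, Adgre1 and Lcn2 this comparison found no difference past the threshold (log2 -0.11, 0.28, 0.41, 0.44 and 0.24, edgeR adjusted p = 0.81, 0.454, 0.416, 0.271 and 0.386), which does not show that the metals act alike.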

How the data were processed

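RNA-seq of 8 libraries of primary mouse hepatocytes was used. The deposited values are raw read counts per gene, made by the authors without normalization. The submitters' processing notes name Trimmomatic, HISAT2, HTSeq, DESeq2 and GRCm38, while the sources used here do not give the strand setting or annotation release of the counting. GENCODE M21 held all 55450 gene identifiers and gave symbols, classes and exon overlaps. Summary counts of unassigned reads stayed out of library sizes and tests.

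Testing needed a summed count of 80 or more over the 8 libraries. edgeR 4.0.16 in R 4.3.3 fitted 6 groups (TMM factors over the tested genes, quasi-likelihood F-test), with 2 residual degrees of freedom and 7.03 from moderation. The biological coefficient of variation was 8.29%. Standard errors were derived from the fold change and its F statistic. Chi-square per degree of freedom between replicates was 6.21 for WT and 17.1 for LSKO, so the replicates differed by more than counting error. DESeq2 1.42.0 and other scalings, filters and left-out libraries were alternatives, and the fitting was tested on simulated data. Near-identical copies came from blastn of the longest transcript of each called gene against all transcripts. Upstream sequences came from RefSeq.

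Genes named are Slc39a8, the tested manganese transport, manganese enzyme and metallothionein genes, up to 4 called members of each other list with the largest changes (or the 1 with the smallest p), and the 15 largest rises and 15 largest falls among called genes averaging at least 100 counts, an established symbol and manganese outside both LSKO libraries. Further list members given beside them, called or not, were chosen after their values were seen. A few items that the rule names are not reported here. The gene set, the 59 lists and the motifs were chosen with earlier results of these data known.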

Additional observations from a re-analysis of the deposited data

Results flagged for a closer look

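Among the named genes, 24 differed between manganese and the mean of the iron, selenite and zinc libraries by the edgeR quasi-likelihood contrast (adjusted p under 0.05, log2 difference beyond 0.5). The manganese arm is 1 library and differs from the other metal libraries in its processing counts, so manganese and processing cannot be told apart.

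The log2 difference was -4.12 for mt-Nd4l, -2.4 for mt-Co3, -2.49 for mt-Atp6 and -1.84 for mt-Co2, all with near-identical nuclear copies. Cytoskeletal genes gave -0.89 (Vim), -1.49 (Tuba1a) and -1.76 (Tubb2b). Metabolic enzymes gave -1.18 (Aldh1a1) and -1.23 (Vnn1). Regulators and other nuclear genes gave -0.56 (Nfe2l2), -0.64 (Nr1h4), -0.81 (Sgk1), -1.05 (Ect2) and -0.7 (Zfp970). Gsta1 gave -1.5 and Mt1 -0.52.

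Positive differences were 0.53 for Tfrc, 0.6 for Apoc1, 0.61 for Acaa2, 0.65 for Cd68, 1.72 for Cyp4a14, 1.2 for Nat8f2 and 1.3 for Nat8f4. Tet3, a methylcytosine dioxygenase that was not called against untreated LSKO, gave 0.74: it was at 39.7 and 31.8 CPM in LSKO, 46.3 CPM with manganese and 43.6, 15.4 and 31.9 CPM with iron, selenite and zinc.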

How the results depend on the processing

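Against untreated LSKO, 62 genes were called higher and 42 lower. Other settings gave, higher then lower, 32 and 21 (DESeq2 over the 3 libraries), 0 and 0 (edgeR over the 3 libraries), 203 and 145 (no count filter), 258 and 92 (all genes of the table in the fit), 378 and 145 (WT and LSKO together as control) and 23 and 21 (log2 limit of 1). DESeq2 over all 8 libraries gave 56 and 39, of which 84 genes were shared with the 104. All 104 kept their direction in every setting that tested them, apart from Selenbp2 with WT and LSKO together as control. These genes were picked by this difference and every setting reuses the same manganese library, so their direction was largely fixed in advance. Leaving out 1 library in turn gave 0 to 240 higher and 0 to 114 lower: without WT replicate 1 or without WT replicate 2, 0 and 0; without LSKO replicate 1, 91 and 98; without LSKO replicate 2, 240 and 114. Whether the replicate numbers pair the samples is not known. Differences between replicates 2 and 1 correlated at -0.0786 between LSKO and WT, and 1 such correlation cannot settle it. A replicate block gave 115 and 65. For manganese against the other metals, leaving out LSKO replicate 1 or 2 gave 151 to 191 higher and 148 to 156 lower, against 44 and 83. With WT and LSKO together as control, Selenbp2 turned to 0.07 and Arg1 to 1.24 (edgeR adjusted p = 0.00496). A fit on length and GC explained 1.74% of the variance in fold change over 7072 genes. The cause of these shifts was not tested.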
